A study of Mus musculus with 2 samples.

Results

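The 10 genes described here are the contractile genes of smooth muscle and the regulators that switch them on. They were taken by name from the gene and transcript tables: Acta2, Actg2, Tagln, Myh11, Cnn1, Des, Mylk, Lmod1, Myocd and Srf, 10 of 43346 genes with an Ensembl identifier. The data are total RNA sequencing of whole lung from mouse embryos of the B6NCrl strain at day 15.5, with healthy male and female embryos pooled and no treatment or mutation. There is 1 group of 2 libraries, with 78 embryos pooled for replicate 1 and 62 for replicate 2. Each library therefore averages a pool of embryos, and a difference between the pools cannot be separated from one of dissection or of library making. With a single group, no condition is compared and no test between conditions exists.

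Smooth muscle surrounds the branching airways and the larger vessels of the embryonic lung. Its cells contract when myosin light chain kinase phosphorylates the light chains of smooth muscle myosin, which then pulls on filaments of smooth muscle actin. The contractile genes share a regulator, serum response factor, which binds the CArG box in DNA. Myocardin is a partner that cannot bind the box alone and that gives serum response factor much of its strength at muscle genes. In whole-lung RNA, fewer smooth muscle cells and less RNA per cell cannot be told apart.

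The regulator's own promoter shows the element most plainly, so its sequence is given, with CArG boxes in capitals. Promoter windows of RefSeq (GRCm38.p6) run from 250 bases before to 50 bases after an annotated start, and 6 of the 10 genes matched a window: Acta2, Cnn1, Lmod1, Mylk, Des and Srf. The window of Srf is printed up to the start that GENCODE M21 gives, as the minus strand of chr17:46556176-46556412.
Srf: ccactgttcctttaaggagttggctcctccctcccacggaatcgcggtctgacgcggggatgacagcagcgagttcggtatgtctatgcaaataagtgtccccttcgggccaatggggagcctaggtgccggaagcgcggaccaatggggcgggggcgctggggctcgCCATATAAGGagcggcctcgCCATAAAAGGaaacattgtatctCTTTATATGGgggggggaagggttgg
Of the capitals, the first 2 runs match the CArG box fully and the last has 1 mismatch. They begin 82, 62 and 39 bases before the RefSeq start. A full match was present in 1.63% of all 32851 promoter windows of this length, and 6 windows held 2 or more, Srf among them. The pattern of the box is the same on both strands, so each match is counted once. A match is a description and not a binding site. Windows with at least 1 box made up 21.1% of all when 1 mismatch was allowed.

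Acta2 held no full match and 2 boxes with 1 mismatch, shown as 30 bases each from the minus strand of chromosome 19.
Acta2, chr19:34255438-34255467: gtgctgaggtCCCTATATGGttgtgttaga
Acta2, chr19:34255388-34255417: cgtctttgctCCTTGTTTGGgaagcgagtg
They begin 84 and 34 bases before the RefSeq start. GENCODE M21 places the start of Acta2 217 bases further upstream, so by that annotation both lie within the transcribed region. Lmod1 also held 2 boxes with 1 mismatch, and 3.70% of all windows hold 2 or more at that stringency. Cnn1, Mylk and Des held none in the window, which says only that the letters are not there. The window of Mylk covers the start of the long coding transcript Mylk-201. Its RefSeq start lies 39740 bases downstream of the gene start that GENCODE M21 gives. Other starts within Mylk were not searched.

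Acta2 was by far the most abundant of the 10 genes, and all 10 reached the detection minimum of 1 TPM in each library, as did 33.6% of all genes. TPM is a level per transcript length, scaled to the same total in every library. Libraries held 40395849.9 and 36601054.1 estimated reads. The 10 genes received 70288 reads in replicate 1 and 71098 in replicate 2. Their summed level was 1268 ± 104 TPM (SD, n = 2), of which Acta2 held 61.3% ± 0.526. Per-library levels below are given as replicate 1 and then replicate 2, and positions are those of GENCODE M21 on GRCm38. Genes that define lung epithelium were present in both libraries, the surfactant gene Sftpc at 6881 and 5864 TPM and the lung factor gene Nkx2-1 at 74.1 and 71.0 TPM.

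**Figure D1:**
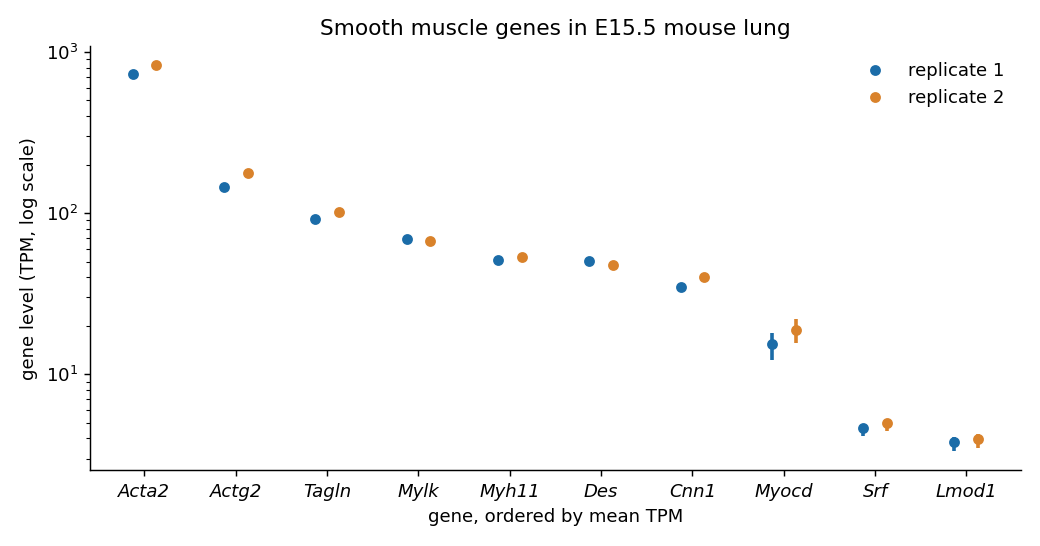
Level of each of the 10 genes in TPM on a log axis, ordered by the mean. Points are the deposited TPM of each library and vertical lines the deposited interval, hidden behind the point where it is narrow. Acta2 stands at 728 and 827 TPM, and Srf and Lmod1 lie near the bottom at 3.78 to 4.97 TPM.

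The actins form the thin filament on which myosin pulls. Acta2, the alpha actin of vascular and airway smooth muscle (ENSMUSG00000035783.8; chr19:34241090-34255590), stood at 728 and 827 TPM from 32377 and 34236 reads. It ranked 147 among all genes by mean level. Actg2, the gamma actin best known from the smooth muscle of the gut (ENSMUSG00000059430.10; chr6:83512905-83536265), stood at 145 and 176 TPM. Acta2 exceeded it 4.85 ± 0.223-fold (n = 2), with deposited intervals that were apart in both libraries. Both actins were higher in the replicate 2 library.

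Among all 6 actin genes the smooth muscle pair was a minor part. Acta2 and Actg2 together held 9.10% of the actin TPM in replicate 1 and 10.6% in replicate 2. The cytoplasmic actins Actb and Actg1, present in every cell, held 62.7% ± 0.544 and 23.3% ± 0.0317. Actc1, the actin of heart muscle, was more abundant than Actg2, at 429 and 339 TPM. Acta1, the actin of skeletal muscle, stood at 7.54 and 25.96 TPM and was lowest. Of the actins expressed in muscle, the smooth muscle pair thus held 66.6% and 73.3%. Actin genes are close copies of each other, so reads could be split between them. Estimated reads were whole numbers (within 0.005) in both libraries for all 10 smooth muscle genes, as for 70.0% of the 17233 genes with 10 or more reads in both. For Actb and Actg1 they were not whole.

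**Figure D2:**
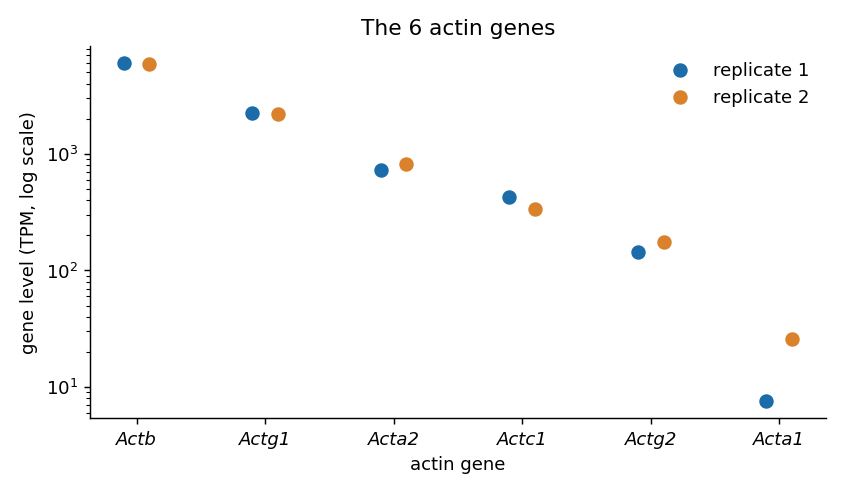
Level of the 6 actin genes in TPM on a log axis, 1 point per library. Acta2 ranks below the cytoplasmic genes Actb and Actg1, and Actc1 lies between Acta2 and Actg2 in both libraries. Acta1 moves most between the libraries, from 7.54 to 25.96 TPM.

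Proteins that bind the actin filament spanned a wide range. Tagln, transgelin, an early marker of smooth muscle that binds actin (ENSMUSG00000032085.4; chr9:45929619-45936058), stood at 91.7 and 102 TPM. Cnn1, the calponin that restrains the actin-activated myosin (ENSMUSG00000001349.4; chr9:22099216-22109630), stood at 34.9 and 39.9 TPM. Tagln exceeded Cnn1 2.59 ± 0.0554-fold (n = 2). Lmod1, the leiomodin that starts actin filaments in smooth muscle (ENSMUSG00000048096.7; chr1:135324807-135368065), was the lowest of the 10, at 3.78 and 3.95 TPM from 385 and 374 reads. Acta2 exceeded Lmod1 192-fold in replicate 1 and 209-fold in replicate 2. The order from Tagln over Cnn1 to Lmod1 was the same in both libraries, with intervals apart.

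The relatives of these genes outside smooth muscle were higher for calponins and lower for leiomodins. Cnn3 and Cnn2, the calponins found in many cell types, stood at 539 ± 0.148 and 306 ± 7.67 TPM. Tmod3, a tropomodulin that caps actin filaments, stood at 89.9 ± 2.63 TPM. The leiomodins of striated muscle were low, Lmod2 at 1.52 and 0.85 TPM and Lmod3 at 0.35 and 0.25 TPM, and neither reached 1 TPM in both libraries.

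On the myosin side, Mylk was higher than Myh11. Myh11, the heavy chain of smooth muscle myosin (ENSMUSG00000018830.8; chr16:14194535-14291372), stood at 51.2 and 53.7 TPM. Mylk, the myosin light chain kinase that starts contraction (ENSMUSG00000022836.10; chr16:34745210-35002420), stood at 69.5 and 66.9 TPM and exceeded Myh11 1.30 ± 0.0785-fold. Part of that level lay on a retained intron transcript. The coding transcript Mylk-201 alone stood at 61.0 and 60.2 TPM, a smaller excess over Myh11 in both libraries. Des, desmin, the intermediate filament of muscle cells (ENSMUSG00000026208.9; chr1:75360329-75368579), stood at 50.2 and 47.8 TPM. Des and Myh11 were the only neighbours in the order of the 10 levels that could not be separated, with intervals that overlapped in replicate 1. Of the nonmuscle myosin heavy chains, Myh10 stood at 112 ± 3.85 TPM, Myh9 at 54.9 ± 3.38 TPM and Myh14 at 38.4 ± 2.50 TPM.

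At the level of genes the regulator Myocd lay above its partner Srf, and most of the gap was TPM assigned to short transcript models with few reads. Myocd, myocardin (ENSMUSG00000020542.14; chr11:65176561-65269989), stood at 15.3 and 18.9 TPM. Srf, serum response factor (ENSMUSG00000015605.5; chr17:46548329-46556175), stood at 4.63 and 4.97 TPM from 489 and 488 reads. The gene levels gave a ratio of 3.55 ± 0.348. The level of Srf rests on a transcript model of 4093 nt, which GENCODE M21 gives as 2616 nt. The transcripts Myocd-202 and Myocd-203, which run over the whole gene, together held 6.08 and 5.95 TPM, a ratio to Srf of 1.26 ± 0.0820. This pair of transcripts was chosen after the values were seen. The interval of Myocd-203 alone overlapped that of Srf in both libraries.

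Of the 6 Myocd transcripts in the table, 3 held at least 10% of the gene's TPM. Myocd-205, of 377 nt and annotated as a processed transcript, held 41.3% and 52.9% of it from only 46.5 and 68.3 reads. Myocd-203, of 5114 nt and protein coding, held 31.7% and 29.6% from 645 and 690 reads. Myocd-204, a partial coding model of 621 nt, held 19.0% and 15.5%. The full-length pair thus took 90.2% and 87.2% of the Myocd reads but 39.7% and 31.5% of the TPM, since a read on a short transcript weighs more per length. How far the short models stand for separate RNAs was not tested.

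Forms of myocardin made by alternative splicing are known to differ between heart and smooth muscle. The full-length transcripts differ by a coding exon that Myocd-203 includes and Myocd-202 skips. Whether this exon has a part in that tissue difference was not tested. The form with the exon led. Myocd-203 stood at 4.86 TPM (interval 3.33 to 5.96) and 5.59 TPM (3.91 to 5.91). Myocd-202 stood at 1.22 TPM (0.0414 to 2.53) and 0.36 TPM (0.00900 to 1.78). The intervals were apart in both libraries, and the form with the exon made up 79.9% and 93.9% of the full-length TPM. This exon, number 11 of Myocd-203, is 144 nt long, a multiple of 3 that keeps the reading frame. The other exon shown marks Myocd-205, lies between exons 2 and 3 of the full-length forms and is 44 nt long, which is no multiple of 3. Neither full-length transcript holds it. Both are read from the minus strand of GRCm38 in the GENCODE M21 transcripts.
Myocd-203 exon, chr11:65184488-65184631: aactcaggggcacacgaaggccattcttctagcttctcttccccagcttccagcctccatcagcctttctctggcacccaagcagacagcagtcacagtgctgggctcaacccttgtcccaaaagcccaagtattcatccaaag
Myocd-205 exon, chr11:65228818-65228861: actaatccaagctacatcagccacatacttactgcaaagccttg
Myocd-205 itself stood at 6.32 TPM (4.03 to 8.72) and 9.98 TPM (7.30 to 12.7). Its interval was apart from that of Myocd-203 in replicate 2 and overlapped it in replicate 1.

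**Figure D3:**
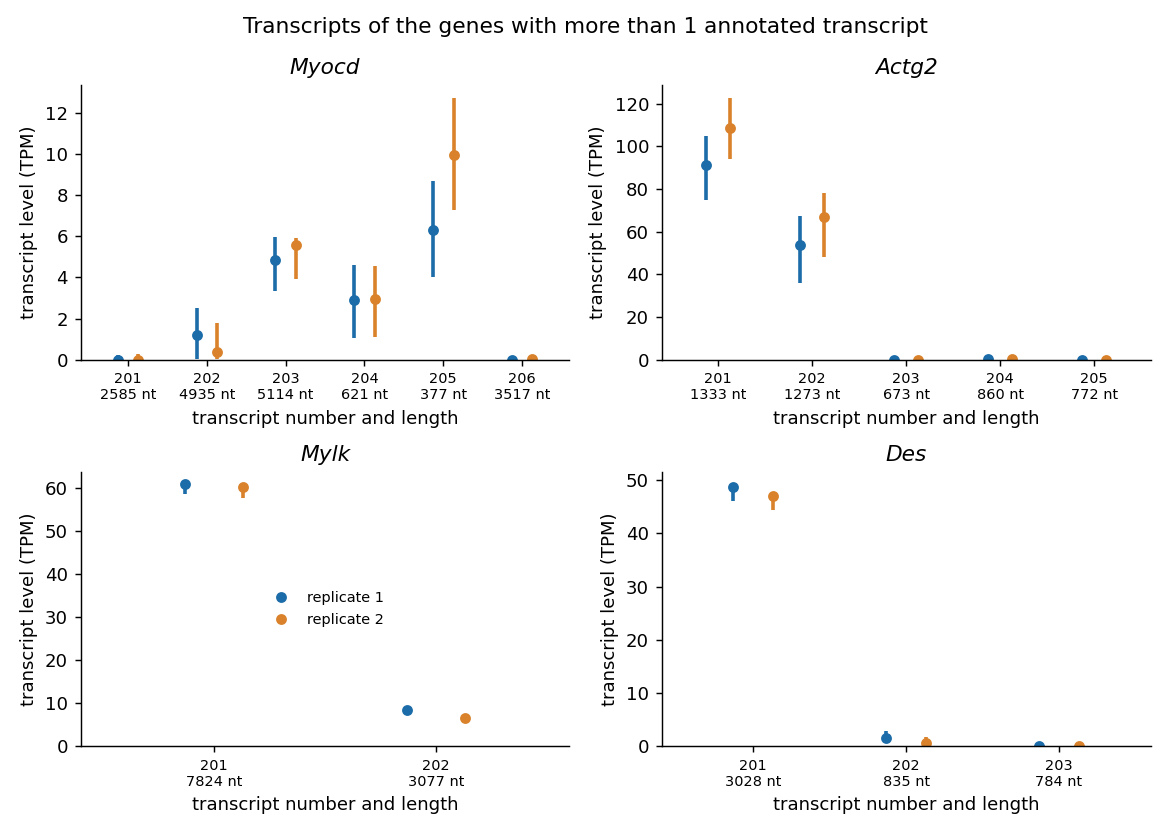
Level in TPM of each transcript of Myocd, Actg2, Mylk and Des, with the deposited interval as a vertical line, by library. Among the Myocd transcripts the 377 nt Myocd-205 is highest while the full-length Myocd-203 lies at 4.86 and 5.59 TPM, and the levels of both main Actg2 transcripts are apart in both libraries.

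Actg2 was the only contractile gene of the 10 with more than 1 coding transcript at 10% or more in the table. The longer, of 1333 nt, stood at 91.1 and 109 TPM and the shorter, of 1273 nt, at 53.6 and 67.0 TPM, with intervals that were apart in both libraries. The longer held 62.7% and 61.7% of the gene's TPM and the shorter 36.9% and 38.0%. Their models differ in the first exon, at chr6:83536180-83536265 for the longer and at chr6:83527958-83527990 for the shorter, so the annotation gives them separate starts. Neither first exon lies in the annotated coding sequence. The other 3 transcripts of Actg2 stood at 0.52 TPM or less.

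Mylk and Des each have only 1 coding transcript in the table, and it held most of the gene's TPM. The rest could fall only on transcripts annotated as retained introns. Mylk-201 held 87.8% and 90.0% of the gene's TPM, and Mylk-202, annotated as a retained intron, held 12.2% and 9.99%. The kinase gene is known to make shorter products as well, a smooth muscle kinase and the kinase-free protein telokin. The table has 2 transcripts for Mylk where GENCODE M21 has 8, so these products could not be told apart. Des-201 held 96.9% and 98.3%, and its retained introns the rest. Each of the other 6 genes has a single transcript in the table, so splice forms known for Myh11 were not separable either.

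Between the libraries the smooth muscle genes differed by less than 2-fold, and after scaling all lay higher in replicate 2. None of the 10 was called apart, a call that needed a mean of 5 TPM, a difference of 2-fold or more after scaling (TMM) and deposited intervals that did not overlap. Across the 11261 genes that reached this mean, 0.364% were called. All 10 log2 ratios of replicate 2 over replicate 1 lay above 0, as did 56.5% of all genes tested, whereas Mylk and Des fell below it when the TPM were left unscaled. Their median was 0.20, against 0.02 over all genes tested, and the median without regard to sign was 0.20 against 0.08. Myocd at 0.38 and Actg2 at 0.35 lay above the central 95% of all genes tested, which ran from -0.33 to 0.29. The scaling itself added 0.08 (log2) to replicate 2.

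With no minimum for the fold, intervals were apart for 5 of the 8 genes that reached a mean of 5 TPM, each higher in replicate 2. Over all genes tested, 9.67% were apart and higher in replicate 2, and 4.07% apart and lower. Intervals narrow with the number of reads, so a small difference is called more readily in a gene with many reads. The 5 were Actg2 at 1.28-fold, Cnn1 at 1.21-fold, Acta2 at 1.20-fold, Tagln at 1.17-fold and Myh11 at 1.10-fold. They are the actins, 2 actin-binding proteins and the myosin heavy chain. Mylk at 1.01-fold and Des at 1.00-fold were not called. Without scaling the same 5-gene count stood for higher, and Mylk was apart and lower, while over all genes 2.84% were higher and 14.6% lower.

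The regulators were not called. Srf gave a log2 ratio of 0.18 and Lmod1 one of 0.14, where counting error alone gives an SD of 0.09 and 0.10, and both lay under the mean of 5 TPM. Myocd gave 0.38, higher than any other of the 10, with overlapping intervals. For Myocd-202 and Myocd-203 together the log2 ratio was 0.04. Within that pair Myocd-203 stood at 4.86 and 5.59 TPM and Myocd-202 at 1.22 and 0.36 TPM. Of the short transcripts, Myocd-204 stood at 2.92 and 2.93 TPM and Myocd-205 at 6.32 and 9.98 TPM, and each had intervals that overlapped between the libraries.

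**Figure D4:**
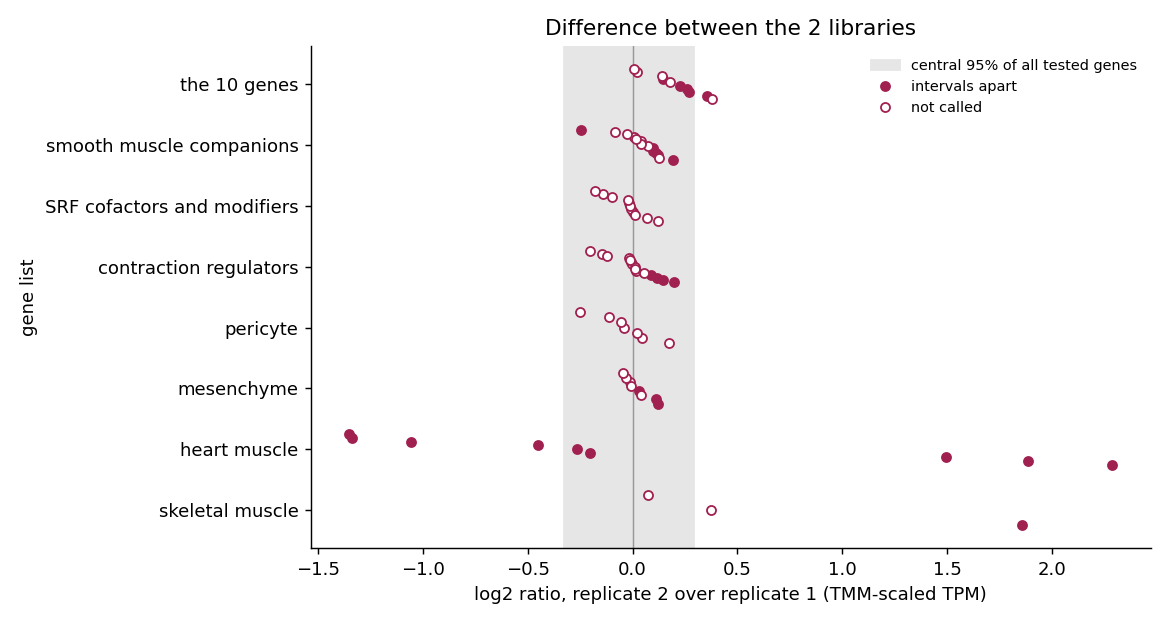
Log2 ratio of replicate 2 over replicate 1 after TMM scaling for the 10 genes and for those members of 7 other lists whose mean reached 5 TPM, 1 point per gene. Filled points have intervals that do not overlap, and the grey band holds the central 95% of all genes tested, from -0.33 to 0.29. The 10 genes lie between 0.00 and 0.38. Most heart muscle genes, but not all, lie outside the band, on both sides.

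Other genes of the contractile apparatus were abundant and nearly level between the libraries. All 15 companion genes of smooth muscle were detected, none was called apart, and their median log2 ratio was 0.06. Myl6, a myosin light chain, was highest at 1138 ± 20.8 TPM, followed by the tropomyosin gene Tpm1 at 639 ± 20.9 TPM and the regulatory light chain gene Myl9 at 378 ± 3.98 TPM. Pgm5 was lowest at 2.57 ± 0.0495 TPM. Of the 14 tested, 5 had intervals apart and higher in replicate 2, among them Tpm2 at 1.14-fold, beside 9.67% of all genes tested. Left unscaled, only Tpm2 of these 5 had intervals apart, where 2.84% of all genes were apart and higher. Synm, an intermediate filament protein that pairs with desmin, was apart and lower at 6.02 against 7.53 TPM, beside 4.07% of all. Most companions also serve in other cell types.

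Genes that set the state of the contractile machine were all present. The 16 regulators of contraction were detected with none called apart and a median log2 ratio of 0.01. Of the 15 tested, 4 had intervals apart and higher in replicate 2, beside 9.67% of all genes tested. The GTPase gene Rhoa stood at 417 ± 19.2 TPM and Ppp1r14a at 226 ± 13.5 TPM. Ppp1r14a encodes CPI-17, a smooth muscle inhibitor of the phosphatase that opposes the kinase, and its intervals were apart at 1.15-fold. Of the 4, only Ppp1r14a had intervals that stayed apart when the TPM were left unscaled. Kcnmb1, a potassium channel subunit of smooth muscle, was lowest at 1.27 ± 0.0354 TPM.

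Most cofactors of serum response factor stood above it in level, as did most detected genes. Srf ranked 11342 among all genes by mean level, and 14583 genes were detected. The 12 cofactors and modifiers were all detected, 11 of them with a mean above that of Srf, none was called apart, and their median log2 ratio was -0.01. Mrtfa and Mrtfb, the myocardin-related factors that carry signals from the actin cytoskeleton to serum response factor, stood at 19.8 ± 0.728 and 20.3 ± 0.445 TPM, above Srf in both libraries. The ternary complex factors Elk3, Elk4 and Elk1, of which Elk1 is known to compete with myocardin for serum response factor, stood at 33.4 ± 1.36, 22.1 ± 2.77 and 9.84 ± 1.03 TPM. Klf4, a repressor of smooth muscle genes, stood at 5.72 ± 0.488 TPM. Csrp2 at 110 ± 3.48 TPM, Pias1 at 42.8 ± 2.05 TPM and Elk3 led the list, and Foxo4 was lowest at 1.65 ± 0.0354 TPM. Early response genes that serum response factor also drives had 5 of 7 detected, led by Ier2 at 77.1 ± 0.919 TPM, Dusp1 at 20.7 ± 1.82 TPM and Junb at 15.7 ± 1.85 TPM. Fosb was lowest at 0.16 ± 0.0424 TPM.

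Genes of heart muscle differed between the libraries in both directions, and 6 of the 9 tested were called apart, beside 0.364% of all genes tested. Desmin, myocardin and alpha smooth muscle actin are also made in embryonic heart muscle, and desmin in skeletal muscle. The 11 heart genes summed to 1572 TPM in replicate 1 and 1079 TPM in replicate 2, 10 of 11 were detected and none was at 0. Of the 9 tested, Myl2, Myl3 and Myh7 were called higher in replicate 2, at 4.88-fold, 3.69-fold and 2.82-fold. Myl7, Myh6 and Nppa were called lower there, at 609 and 228 TPM, 80.3 and 29.9 TPM, and 132 and 60.5 TPM. Ryr2 was lowest at 0.67 ± 0.170 TPM. The 9 skeletal muscle genes summed to 58.6 and 92.5 TPM, with 5 of 9 detected, none at 0 and Acta1 called higher in replicate 2 at 3.63-fold. Their median level was 1.66 and 4.32 TPM. Only 3 of the 9 reached the mean of 5 TPM, so the rest could not be called. Ckm at 34.6 ± 0.0354 TPM and Mylpf at 12.7 ± 1.85 TPM were the other leading genes, and the muscle regulator Myod1 was lowest at 0.11 and 0.23 TPM. Des, made in all 3 kinds of muscle, differed by 1.00-fold. The part of heart and skeletal muscle in that value and in the differences of the 10 genes was not tested.

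Genes of pericytes and of lung mesenchyme were present in both libraries. The 8 pericyte genes summed to 198 and 183 TPM, led by Cox4i2 at 65.6 ± 4.12 TPM, Pdgfrb at 46.3 ± 0.636 TPM and Higd1b at 22.9 ± 3.66 TPM. The lowest was Abcc9 at 3.78 ± 0.297 TPM, the median log2 ratio was -0.04, and none of the 7 tested had intervals apart. The 8 mesenchyme genes summed to 4273 and 4066 TPM with a median log2 ratio of 0.01. Of these, 3 of 8 had intervals apart and higher in replicate 2 (Col1a2, Foxf1 and Tbx4), beside 9.67% of all genes tested. None of the 3 was apart and higher when the TPM were left unscaled, where 2.84% of all genes were. Col1a2 was higher only after scaling, with unscaled levels of 629.9 and 611 TPM. Foxf1 and Tbx4 were higher unscaled as well, but with intervals that overlapped. Col3a1 led the mesenchyme genes at 1311 ± 67.5 TPM, followed by Col1a1 at 1030.3 ± 45.2 TPM and Vim at 735 ± 12.3 TPM, and Pdgfra was lowest at 32.7 ± 1.95 TPM.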

How the data were processed

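For each library the authors deposited 1 table by gene and 1 by transcript, made with mm10 and GENCODE M4 per the deposited text that describes the files. Expected counts, TPM and FPKM are the authors' values per the file headers, as is the percent of a gene's TPM that a transcript holds. The interval of the TPM is deposited with them, around the posterior mean, at a level that is not stated. For Acta2, Mylk and Myh11 the TPM lay above it in both libraries. What program was used, and whether it used strand, is not given in the sources used here. Names, transcript types and positions came from GENCODE M21 by identifier without version, and 16 of the 22 transcripts had the same length there. Those that differed include the only transcripts counted for Acta2, Tagln, Cnn1, Myh11 and Srf.

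Expected counts were rounded and libraries scaled by TMM (edgeR 4.0.16, R 4.3.3) or, as an alternative, DESeq2 1.42.0 size factors, on Ensembl genes with at least 10 reads. The libraries were no duplicates: their counts differed beyond sampling noise (chi-square over degrees of freedom 6.90, from 17233 genes). The call rule was tested on simulated data with sampling noise alone, and so not at the larger spread of these libraries. Members are named in full, transcripts from 10% of a gene's TPM, and of other lists the 3 highest, the lowest, those called apart and the direct partners of a member. The values of 1 listed gene that this rule names are not reported here. The members and lists were chosen with earlier results of these data known. The lung epithelium genes were added later, to check the label, and the printed pairs of genes were chosen after their values were seen. Intervals cover counting and read assignment only. With 2 libraries of 1 group, no pattern across samples was compared between genes.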

Additional observations from a re-analysis of the deposited data

How the results depend on the processing

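All 10 genes stayed detected at 0.5 TPM and with posterior mean TPM, and 8 remained at 5 TPM. The number called apart stayed at 0 under DESeq2 size factors, no scaling, other minimum levels and 1.5-fold, and was 5 with no fold minimum and 6 with neither fold minimum nor scaling, the latter chosen after seeing the data. The median log2 ratio ranged from 0.13 (no scaling) to 0.20. Left unscaled, Mylk gave -0.06 and Des -0.07. Posterior mean TPM changed each level by a factor of 0.978 to 0.989, and TPM over Ensembl genes alone by 1.05. A single library gave levels of 0.896 to 1.10 times the mean. Myocd fell from 17.1 to 6.02 TPM with the full-length transcripts alone. Depth limits Srf, Lmod1 and the Myocd transcripts most. No paired analysis was possible because there is a single group.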
